A study of Mus musculus with 4 samples.

Results

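The genes described here are the 3 peroxisome proliferator-activated receptors (PPARs) of the mouse, Ppara, Ppard and Pparg, with the coactivator gene Ppargc1b and 5 genes known as targets of fatty acid sensing, Pdk4, Angptl4, Ucp2, Ucp3 and Vnn1. They were found by symbol in the platform annotation. Of these 9 genes 8 had a probe set of their own, out of 22180 genes named on the array, and Ucp2 was not analysed here because no probe set carried that symbol. A second probe set naming Ppard together with another gene was not used. Transcripts were measured in macrophages grown from bone marrow of 8 to 12 week old mice in medium with 15% L929-conditioned medium. Wild type (WT) means Hilpdaflox/flox mice, which carry the floxed gene without deletion, and knockout (KO) means their HilpdaΔMΦ littermates, in which macrophages lack Hilpda, a gene for a lipid droplet protein that inhibits triglyceride breakdown. The labels do not name the Cre driver. Cells of each genotype received 600 µM palmitate and oleate (1 part to 2 parts, bound to albumin) for 12 h or 24 h, so every group had fatty acids, and cells without them were not analysed here. Each of the 4 groups is 1 array, hybridised with RNA pooled from 3 samples, which leaves no replicate error within a group.

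PPARs are nuclear receptors that bind fatty acids and their derivatives, pair with a retinoid X receptor (RXR), and switch on genes of fatty acid uptake, storage and oxidation. PPARα is best known from liver, PPARδ is expressed in many tissues, and PPARγ is the receptor of fat cells and also acts in macrophages. Among their targets, PDK4 inhibits the pyruvate dehydrogenase complex and so spares glucose, ANGPTL4 inhibits lipoprotein lipase, UCP3 is a mitochondrial carrier of muscle, and VNN1 is a pantetheinase that recycles part of coenzyme A.

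PPAR and RXR bind side by side to a direct repeat of the half-site AGGTCA with 1 base between the copies, known as DR1. The window from 250 bases before to 50 after each gene's start was taken from RefSeq (mouse build GRCm38.p6), 8 windows of 6 members. Ppargc1b was left out of this search, and Angptl4 and Vnn1 had no window in that table. The half-site was searched on both strands and occurred in 3 of the 8 windows, against 16.3% of all 32851 windows. The full repeat AGGTCANAGGTCA was in 0.0396% of all windows and its looser form AGGNCANAGGNCA in 0.381%, and neither was in any of the 8. Shares that low leave little to be read from absence in 8 windows, and bases outside the windows were not searched. A half-site match also counts wherever it is part of a repeat. The sequences below show Pdk4, the member with the widest range over the arrays, and the 3 windows with a half-site, which lie before the Ucp3 start and before the first and the second of 3 Pparg starts. They are written 5′ to 3′ on the strand of the gene and end at the base before the start, with half-sites in capitals. Pdk4 is at chr6:5496279-5496528 (minus strand), Ucp3 at chr7:100472741-100472990 (plus), and the 60-base Pparg stretches at chr6:115361084-115361143 and chr6:115362289-115362348 (both plus).
Pdk4: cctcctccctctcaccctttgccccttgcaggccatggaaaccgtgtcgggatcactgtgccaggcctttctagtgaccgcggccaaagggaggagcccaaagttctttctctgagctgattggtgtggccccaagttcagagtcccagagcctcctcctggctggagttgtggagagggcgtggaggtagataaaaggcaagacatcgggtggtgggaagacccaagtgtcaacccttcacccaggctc
Ucp3: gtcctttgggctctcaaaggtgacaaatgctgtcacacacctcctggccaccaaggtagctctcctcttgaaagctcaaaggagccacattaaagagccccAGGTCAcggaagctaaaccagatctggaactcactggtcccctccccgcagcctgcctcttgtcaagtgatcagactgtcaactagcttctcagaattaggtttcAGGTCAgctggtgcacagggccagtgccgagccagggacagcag
Pparg start 1: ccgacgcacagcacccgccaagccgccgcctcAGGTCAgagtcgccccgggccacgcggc
Pparg start 2: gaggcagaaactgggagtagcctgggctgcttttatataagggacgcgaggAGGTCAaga

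The 2 half-sites of Ucp3 lie at positions -149 to -144 and -44 to -39 from the start, and those of Pparg at -28 to -23 and -9 to -4. The windows differed in base composition, from 40.3% G and C at the third Pparg start to 80.3% at the first, against a median of 52.7% over all windows. No binding was measured in these samples.

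Values are log2 expression per probe set, and a difference is 1 log2 value minus another. As a guide to background, 1405 olfactory, vomeronasal and trace amine receptor genes were used, whose 95th percentile lay between 2.61 and 2.65 on the 4 arrays. Genes with a mean level of at least 2.44, the 40th percentile, were kept for comparisons across genes, which left 13308. The members kept were 6: Ppard, Pparg, Ppargc1b, Pdk4, Angptl4 and Ucp3. All 8 macrophage markers were above the receptor limit on every array, and 0 of 5 adipocyte markers were above it on any. At 24 h the macrophage markers had a median KO minus WT difference of -0.27, with 7 of 8 below 0. Hilpda itself was at 5.93 in WT and 5.41 in KO at 12 h, and at 5.47 and 5.27 at 24 h, which is a limited check of the labels because the deleted part is not given. Pools of cells cannot tell fewer cells of a type from less RNA per cell.

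Of the PPAR genes, Pparg and Ppard were measured well above background and Ppara was not. The level of Pparg (Entrez 19016, probe set 17461942) was 7.90 in WT and 8.12 in KO at 12 h, and 8.13 in WT and 8.63 in KO at 24 h. The KO 24 h array was the highest and the WT 12 h array the lowest, with the remaining arrays 0.02 apart on the log2 scale. The KO minus WT difference was 0.22 at 12 h and 0.49, or 1.41-fold, at 24 h. At 24 h 9.90% of the genes kept had a difference at least that large in size. The 24 h minus 12 h difference of Pparg was 0.24 in WT and 0.51 in KO. None of these reached 1.5-fold, the size used for counting below.

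Ppard (Entrez 19015, probe set 17335297) was at 6.12 in WT and 6.31 in KO at 12 h, and at 6.63 and 6.42 at 24 h. Here the WT 24 h array was the highest. Its KO minus WT difference was 0.19 at 12 h and -0.20 at 24 h, and the time difference was 0.51 in WT and 0.12 in KO, all under 1.5-fold. A genotype difference at least that large in size was found for 31.1% of the genes kept at 12 h and 41.6% at 24 h.

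Ppara (Entrez 19013, probe set 17313862) was at 2.15 in WT and 2.37 in KO at 12 h, and at 2.54 and 2.17 at 24 h. It lay under the receptor limit on all 4 arrays and below the level filter, so its differences of 0.22 and -0.36 are those of a signal at background.

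Ppargc1b (Entrez 170826, probe set 17354739), the coactivator PGC-1β, which binds PPARs and raises mitochondrial gene expression, was at 3.97 in WT and 3.95 in KO at 12 h, and at 4.09 and 3.95 at 24 h. It spanned 0.14 over the 4 arrays, the narrowest range of the 8 members, while above the receptor limit on each. The related coactivator gene Ppargc1a was listed at 1.57 to 1.85, below the filter. The RXR genes Rxra and Rxrb had KO minus WT differences of -0.03 and 0.01 at 12 h and -0.18 and -0.24 at 24 h, and Rxrg was not kept. Of 9 kept coregulators among 12 listed, 0 passed 1.5-fold in any of the 4 comparisons, where 2.9% to 8.72% of all genes kept did. The median KO minus WT difference of the 9 was -0.06 at 12 h and -0.23 at 24 h. At 24 h 7 of 9 were below 0, among them the corepressor gene Nrip1 at -0.34 and the acetyltransferase gene Ep300 at -0.30. The median over all genes kept was 0.01 at 24 h.

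**Figure D1:**
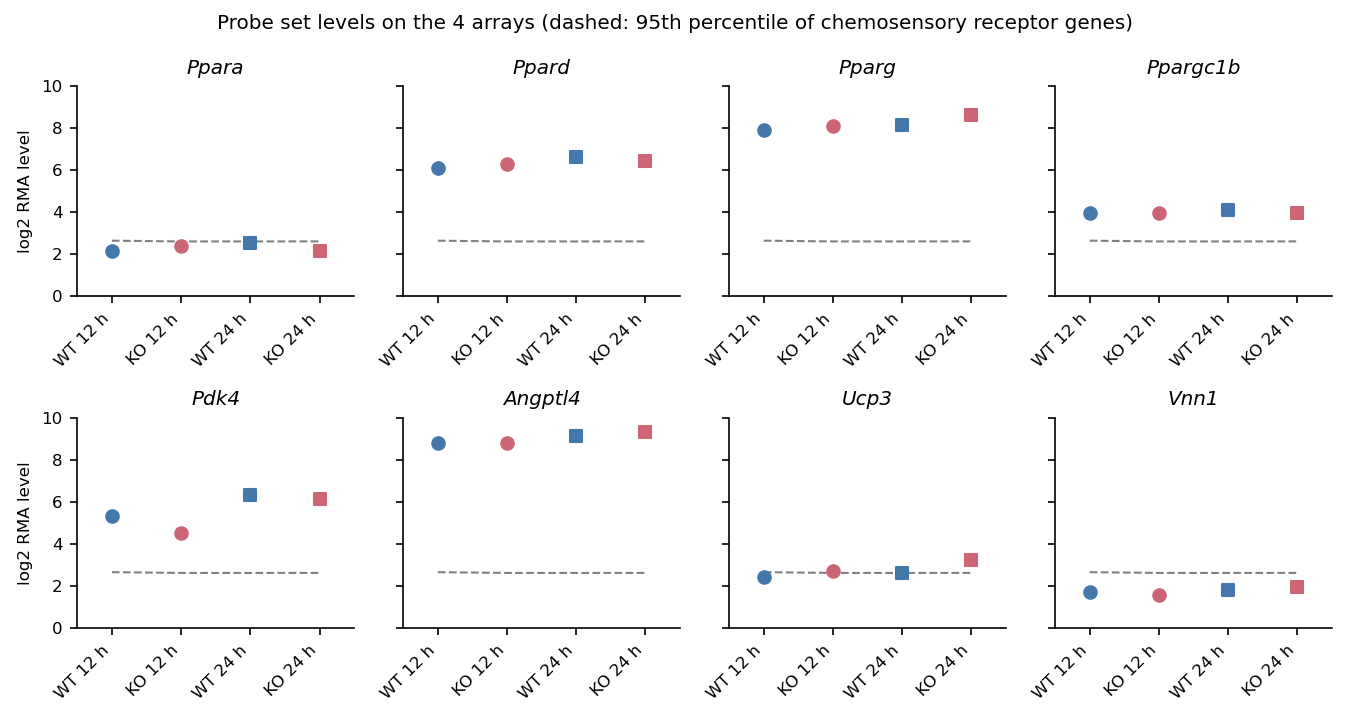
Log2 expression level (vertical axis) of the 8 measured genes on the 4 arrays (horizontal axis; blue WT, red KO, circles 12 h, squares 24 h), 1 point per array of pooled RNA, with the 95th percentile of the chemosensory receptor genes dashed. Ppara and Vnn1 lie under the dashed line throughout, and Pdk4 spans 1.80, from 4.49 in KO at 12 h to 6.29 in WT at 24 h.

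Pdk4 (Entrez 27273, probe set 17464654) had the widest range of the 8 genes. Its level was 5.32 in WT and 4.49 in KO at 12 h, and 6.29 in WT and 6.13 in KO at 24 h. Both 24 h arrays were above both 12 h arrays, and the KO 12 h array was the lowest. At 12 h Pdk4 was 1.77-fold lower in KO (-0.82), and 50 of the 13308 genes kept, with Pdk4 itself among them, were as low or lower. At 24 h the difference was -0.16, or 1.12-fold, and 51.0% of genes kept had one at least that large in size.

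Over time Pdk4 was 1.97-fold higher at 24 h than at 12 h in WT (0.97) and 3.11-fold higher in KO (1.64). In KO 13 genes of those kept, with Pdk4 itself among them, were as high or higher. In a limma fit of genotype and time over all 13308 genes, its time effect was 1.31 ± 0.19 (SE, log2) with an adjusted p of 0.0101, and its genotype effect was -0.49 ± 0.19 with an adjusted p of 0.649. That fit has 1 residual degree of freedom, which measures how far the genotype difference changed between the times and not the spread of replicates. The time call depended on how limma pools the variance: the adjusted p was 0.163 without a variance trend, and ranged from 0.000254 to 0.163 over all alternatives run.

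The other genes that act on pyruvate dehydrogenase did not share the Pdk4 pattern in size. Pdk1, Pdk2 and Pdk3, the other kinases, had KO minus WT differences of -0.12, 0.10 and -0.25 at 12 h, and their time differences lay between -0.21 and 0.30. Pdp1 and Pdp2, the phosphatases that reverse PDK action, were at 5.75 and 4.87 in WT and 6.53 and 5.60 in KO at 24 h. Their differences there were 0.78 (1.71-fold) and 0.73 (1.65-fold), the 2 of the 6 genes of that list past 1.5-fold, where 2.98% of all genes kept were higher by that much, while at 12 h they were 0.28 and 0.13. For Pdp2 the WT 24 h array was the lowest of the 4, and for Pdp1 the KO 24 h array was the highest.

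Centred profiles over the 4 arrays were compared with that of Pdk4, with clone, predicted and small RNA names passed over. The nearest genes were Col8a1, a collagen gene (Euclidean distance 0.17 on the log2 scale), Bank1, a B cell scaffold gene (0.26), and Tpm2, a tropomyosin gene (0.37). Col8a1 was at 3.66 in WT and 2.98 in KO at 12 h, and at 4.82 and 4.69 at 24 h. With 4 arrays such likeness is only a description. Markers of stromal cells moved in part with Pdk4. Of 9 measured, 7 were above the receptor limit on every array, and Lum and Thy1 were under it on all. The log2 of their summed level was 9.33 in WT and 8.81 in KO at 12 h, and 10.16 and 9.33 at 24 h. The 7 kept markers had median differences of -0.56 at 12 h and -0.82 at 24 h between genotypes, and of 0.80 in WT and 0.51 in KO between times. At 24 h all 7 were lower in KO, 5 of them by at least 1.5-fold, against 3.51% of all genes kept. Pdk4 was lower by 1.12-fold, and the part of these markers in its values was not tested.

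Angptl4 (Entrez 57875, probe set 17343628) was higher at 24 h in both genotypes. Its level was 8.78 in WT and 8.80 in KO at 12 h, and 9.13 and 9.30 at 24 h, so that both 24 h arrays were above both 12 h arrays. The time difference was 0.35 (1.28-fold) in WT and 0.50 (1.41-fold) in KO. In the limma fit the time effect was 0.43 ± 0.08 (SE, log2) with an adjusted p of 0.0275, but 0.272 without a variance trend and 0.0786 with no level filter, and from 0.00346 to 0.272 over all alternatives. The KO minus WT difference was 0.02 at 12 h and 0.17 at 24 h (limma genotype effect 0.09 ± 0.08, adjusted p 0.842). Lpl, the lipoprotein lipase gene whose product ANGPTL4 inhibits, had differences of -0.08 and 0.11. Over the 4 comparisons 2.9% to 8.72% of all genes kept passed 1.5-fold. Of the 4 kept genes among 8 listed relatives and lipase partners, 0 did in any. The largest differences among them were 0.45 at 12 h for Gpihbp1, which anchors the lipase on capillaries, and -0.27 at 24 h for Angptl8. Gpihbp1 was above the receptor limit only on the KO 12 h array (2.685), and Angptl8 on 3 of the 4 arrays. Lmf1, which matures the lipase, had differences of 0.25 and 0.23.

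Ucp3 (Entrez 22229, probe set 17480729) was close to background, with its highest value in KO at 24 h. Its level was 2.43 in WT and 2.72 in KO at 12 h, and 2.63 and 3.25 at 24 h. The WT 12 h array was under the receptor limit, the WT 24 h array 0.02 above it, and both KO arrays above both WT arrays. The KO minus WT difference was 0.29 at 12 h and 0.62, or 1.54-fold, at 24 h. Of the receptor genes 4.63% had a 24 h difference at least as large in size. Skeletal muscle markers had their highest summed level in the same array: its log2 was 5.77 in WT and 5.57 in KO at 12 h, and 5.47 and 6.33 at 24 h. Of the 7 markers 6, 4, 3 and 7 were above the receptor limit on these arrays. At 24 h 6 of 7 were higher in KO by at least 1.5-fold, against 2.98% of all genes kept. Myh4, a fast myosin gene counted among the 6, was at 2.16 in WT and 3.72 in KO at that time, and at 2.46 and 1.97 at 12 h. It was above the receptor limit only on the KO 24 h array. Its mean of 2.58 passed the level filter only with that array included, so its being kept depended on its high value there. The part of the muscle markers in the Ucp3 value was not tested. The related carrier genes Slc25a27 and Slc25a30 were at 0.40 and 0.15 for KO minus WT at 24 h, and Ucp1 of brown fat was not kept. Of the 3 kept genes of that family 0 passed 1.5-fold in any comparison, against 2.9% to 8.72% of all genes kept.

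Vnn1 (Entrez 22361, probe set 17232162) was at 1.72 in WT and 1.58 in KO at 12 h, and at 1.82 and 1.94 at 24 h. These values lie in the middle of the receptor genes, of which 28.3% to 66.2% were lower on the 4 arrays, so a Vnn1 signal was not detectable above background. Vnn3, the other pantetheinase listed, was between 2.13 and 2.47 and also not kept.

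**Figure D2:**
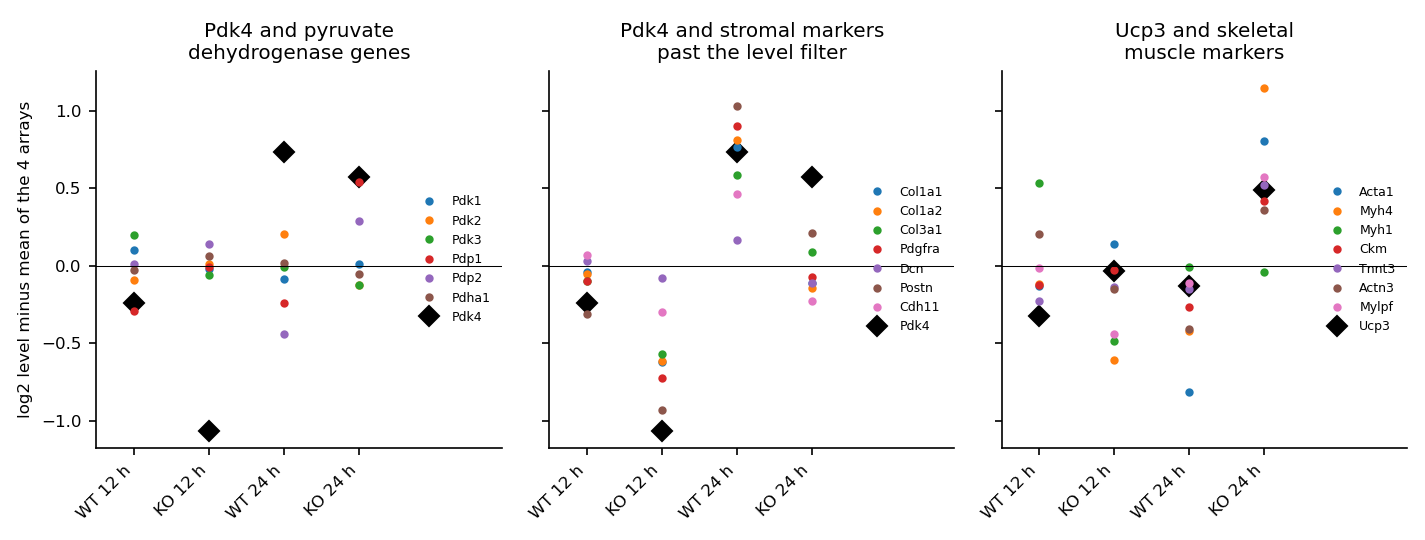
Log2 level minus the gene's mean over the 4 arrays (vertical axis) by array (horizontal axis), for Pdk4 (black) with 6 pyruvate dehydrogenase genes at left and 7 stromal markers in the middle, and for Ucp3 (black) with 7 skeletal muscle markers at right. Pdk4 and 6 of the 7 stromal markers are lowest in KO at 12 h, and in KO at 24 h Pdk4 lies above all 7; Ucp3 and 6 of the muscle markers are highest in KO at 24 h.

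Between the genotypes, 1 of the 6 kept members passed 1.5-fold at each time. At 12 h it was Pdk4, against 2.9% of all genes kept past 1.5-fold in either direction and 1.4% lower by that much. At 24 h it was Ucp3, against 6.49% in either direction and 2.98% higher. The median KO minus WT difference of the 6 was 0.10 at 12 h and 0.01 at 24 h, against 0.00 and 0.01 over all genes. In limma 0 of the 13308 genes (0%) had an adjusted p under 0.05 for genotype, and 976 (7.33%) had an unadjusted p under 0.05. Among the latter were Pparg (effect 0.36 ± 0.10, SE, adjusted p 0.514), Pdk4 and Ucp3 (0.45 ± 0.20, adjusted p 0.678). Median centring and quantile normalization gave 14 and 25 genes with an adjusted p under 0.05, with 0 members.

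**Figure D3:**
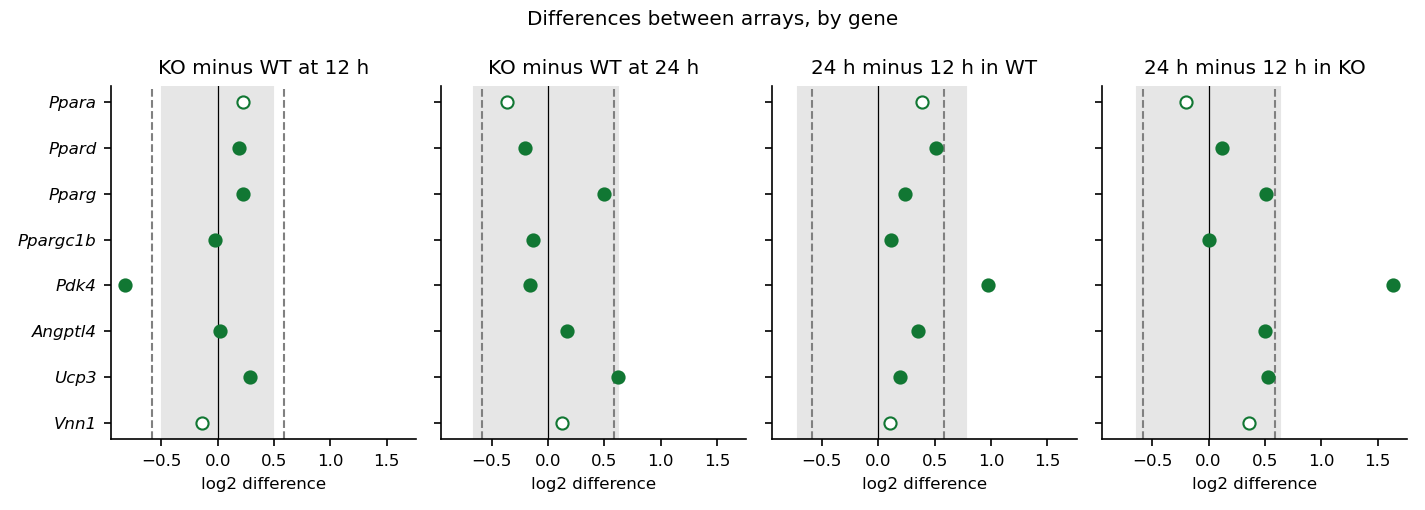
Log2 difference (horizontal axis) of the 8 measured genes (vertical axis) in the 4 comparisons, with the central 95% of all genes kept shaded and 1.5-fold dashed; open points are Ppara and Vnn1, below the level filter. Pdk4 lies outside the shading at 12 h between genotypes (-0.82) and in both time comparisons (0.97 and 1.64).

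Between the times, the kept members lay on the higher side. All 6 had a 24 h minus 12 h difference above 0 in WT and in KO, where 49.1% and 50.4% of all genes kept were above 0. Their median was 0.30 in WT and 0.51 in KO, against -0.01 and 0.00 over all genes, with Ppargc1b the smallest at 0.11 and 0.00. Marker lists varied in their time differences. The 8 macrophage markers had a median of 0.27 in WT (7 of 8 above 0) and 0.02 in KO (5 of 8). The 7 kept stromal markers had 0.80 (7 of 7) and 0.51 (6 of 7), and the 7 skeletal muscle markers -0.30 (1 of 7) and 0.66 (7 of 7). The kept T cell, B cell, endothelial and dendritic cell markers, 2 or 3 per list, had medians of 0.06, 0.20, 0.20 and 0.26 in WT. In KO these were -0.09, 0.27, 0.18 and -0.15. The markers within a list did not all move together. In WT 1 of 2, 2 of 2, 2 of 3 and 1 of 2 were above 0, and in KO 1, 2, 2 and 0. Of the endothelial markers in WT, Kdr was at -1.66 and Pecam1 at 1.02. The T cell marker Cd8a, the B cell marker Pax5 and the skeletal muscle marker Myh4 were above the receptor limit on 1 array each. The part of these markers in the members' time differences was not tested. Of the 6 members only Pdk4 passed 1.5-fold, in both genotypes, against 8.72% of genes in WT (4.71% higher) and 6.31% in KO (3.06% higher). In limma 4.06% of genes had an adjusted p under 0.05 for time, 2.03% with a higher value at 24 h, and 2 of the 6 kept members did, Pdk4 and Angptl4, both higher. Pparg was at 0.38 ± 0.10 (SE) with an adjusted p of 0.0800, and from 0.0231 to 0.351 over the alternatives. The genotype and time differences share arrays, and without cells lacking fatty acids the time differences do not separate fatty acid exposure from time in culture.

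The change of the KO minus WT difference from 12 h to 24 h was 0.66 (1.58-fold) for Pdk4, the only one of the 6 kept members past 1.5-fold, against 10.1% of all genes kept (4.7% in its direction) and 14.4% of the receptor genes. It was 0.33 for Ucp3, 0.27 for Pparg, 0.15 for Angptl4, -0.11 for Ppargc1b and -0.39 for Ppard. This change could not be tested.

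**Figure D4:**
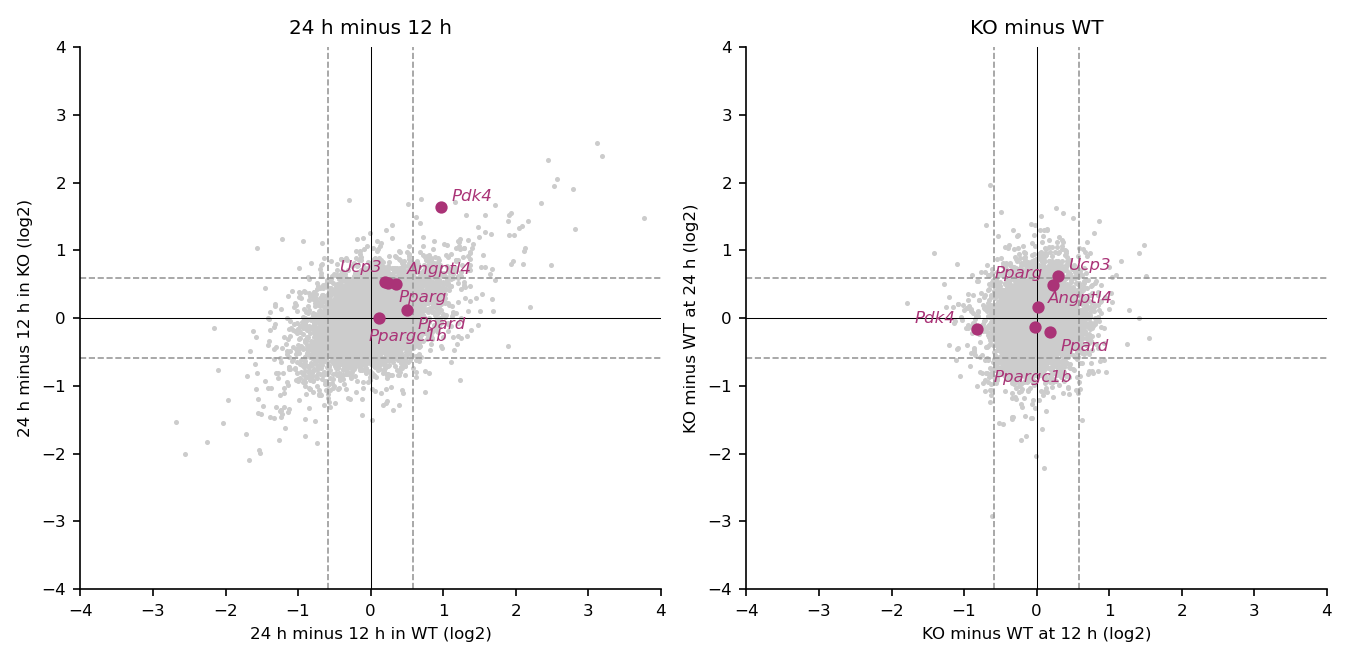
Left, the 24 h minus 12 h difference in WT (horizontal) against KO (vertical); right, the KO minus WT difference at 12 h against 24 h, both in log2, with the 13308 genes kept in grey, 6 members in purple and 1.5-fold dashed. On the left all 6 members lie at or above 0 on both axes and Pdk4 (0.97 and 1.64) is past 1.5-fold on both; on the right none is past it on both axes.

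Other genes known as PPAR targets were taken from lists by function. Of 23 listed genes of fatty acid oxidation 18 were kept, and 0 passed 1.5-fold in any of the 4 comparisons. Of all genes kept, 2.9% and 6.49% passed it between genotypes at 12 h and 24 h, and 8.72% and 6.31% between times in WT and KO. Cpt1a, which admits fatty acids to mitochondria, was at -0.04 between genotypes at both times and at -0.20 between times in both. The peroxisomal genes Pex11a and Acaa1b were at 0.41 and -0.34 for KO minus WT at 24 h, the latter near background. The median of the 18 was 0.01 at 12 h and 0.10 at 24 h between genotypes, and -0.04 in WT and 0.01 in KO between times.

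Of 24 listed genes of uptake, droplets and related signals 13 were kept. Between genotypes at 12 h 0 of these passed 1.5-fold, against 2.9% of all genes kept. At 24 h 3 were higher in KO by that much and 1 lower, against 2.98% and 3.51% of all genes kept. Fabp4, a fatty acid-binding protein gene of fat cells and macrophages, was at 8.19 in WT and 8.70 in KO at 12 h, and at 7.55 and 9.03 at 24 h, a difference of 1.48 at the later time. Its time difference was -0.64 in WT and 0.33 in KO, opposite in sign to that of the 6 kept members in WT. Fabp5 (0.61) and the LXRα gene Nr1h3 (0.67) were the others, named here after their values were seen. Txnip, a glucose-responsive thioredoxin inhibitor gene, was lower in KO by 2.07-fold at 24 h, with 10.95 in WT against 9.90 in KO and 9.88 and 9.68 at 12 h, so its difference rests on the WT 24 h array. Cd36, the fatty acid transporter gene, was at 0.10 and 0.19 between genotypes, and Plin2, the droplet coat gene, at -0.01 and 0.18.

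Over all 9 pathway lists 64 of 95 genes were kept. Between genotypes 0 passed 1.5-fold at 12 h, against 2.9% of all genes kept, and 8 (12.5%) did at 24 h, 5 higher and 3 lower, against 6.49%. Between times 5 (7.81%) passed it in WT, close to the 8.72% of all genes, and 2 (3.12%) in KO, against 6.31%. Their median time differences were -0.03 in both genotypes, where those of the 6 kept members were 0.30 and 0.51. Both the members and the lists were chosen with earlier results of these arrays known, and the difference between members and lists was not tested.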

How the data were processed

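Total RNA of pooled bone marrow-derived macrophages was labelled with biotin and hybridised to Affymetrix whole-transcript arrays, 1 per group, per the labels' protocols. The authors deposited 1 log2 value for each probe set and array. RMA is the only tool in the submitters' processing notes, without a version; it aligns the distributions of the arrays, which hides any change common to most transcripts. Array annotation build and probe locations are not given in the sources used here, and 0 value columns were unmatched. Arrays correlated at 0.984 to 0.988, and their number limits the precision.

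Of 41345 probe sets 23521 had 1 gene symbol, 1814 several and 16010 none; only the first were named, and for a gene with several probe sets the one with the highest mean was taken. Differences of at least 1.5-fold were counted without a test. The only test was limma 3.58.1 (R 4.3.3; lmFit, eBayes with trend, genotype plus time, Benjamini-Hochberg over 13308 genes). A check on simulated data covered the size of added differences, and its limma calls are not reported here. Members, 9 pathway lists and 9 marker lists were chosen with earlier results of these data known. Named beside the members were the 2 kept genes of each pathway list with the largest differences, any pathway gene past 1.5-fold with 1 sign in both genotype or both time differences, 7 fixed genes (Rxra, Rxrb, Cd36, Cpt1a, Plin2, Fabp4, Hilpda) and the 3 profiles nearest to a kept member spanning at least 1; others were named after their values were seen. Clone, predicted and small RNA names were passed over in the search for near profiles. Alternatives were folds of 1.3 and 2, no level filter, the 60th percentile, median centring, quantile normalization, the mean of probe sets and limma without trend.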

Additional observations from a re-analysis of the deposited data

Results flagged for a closer look

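Cdo1, the cysteine dioxygenase gene of the list for coenzyme A synthesis, had time differences of opposite sign in the genotypes, each past 1.3-fold: 0.67 in WT and -0.53 in KO. Its levels were 2.33 and 2.67 at 12 h in WT and KO and 3.00 and 2.14 at 24 h, above the receptor limit on 2 of the 4 arrays. The difference between the genotypes was not tested. None of the 8 measured members met this rule.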

How the results depend on the processing

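The differences of the 8 measured members were recomputed under median centring, quantile normalization and the mean of probe sets. All 120 values stayed within 1 SD of the receptor genes' differences, and the widest span was 0.08. Each measured member has 1 probe set, so the mean of probe sets could not change its values. Counts of kept members moved with the fold rule. At 1.3-fold they were 2 for genotype at 24 h (Pparg and Ucp3), 2 for time in WT (Ppard and Pdk4), 4 for time in KO (Pparg, Pdk4, Angptl4 and Ucp3) and 2 for the change of the genotype difference; at 2-fold they were 0 in each comparison other than time in KO, where Pdk4 passed. With no level filter the change of the genotype difference had 2 (Ppara and Pdk4), against 10.4% of the 22180 genes. With the filter at the 60th percentile, which drops Ucp3 and Ppargc1b, genotype at 24 h had 0. Over all genes, the share past the fold was 9.9%, 17.1%, 20.4%, 16.8% and 23.5% at 1.3-fold (genotype at 12 h and 24 h, time in WT and KO, and the change), 0.255%, 0.774%, 1.95%, 1.13% and 1.87% at 2-fold, and 1.03%, 4.28%, 7.47%, 4.62% and 5.18% with the 60th percentile filter. The limma time calls over all genes numbered 540, and 0 without variance trend (1759 at an unadjusted p under 0.05), 235 with no level filter, 861 after median centring and 914 after quantile normalization, with 0, 1, 3 and 3 members. Genotype calls were 14 and 25 after these 2 scalings. The estimated prior degrees of freedom were 6.92 in the fit reported, 3.30 without trend, 13.7 after centring and 13.9 after quantile normalization. No paired analysis was possible because each group is 1 array. Levels near background (Ppara, Ucp3, Vnn1) restrict what can be read from their differences.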

Other observations

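Among receptors of the cell surface that bind fatty acids, Gpr84, which binds medium-chain fatty acids in macrophages, was lower at 24 h in both genotypes. Its level was 6.63 in WT and 6.20 in KO at 12 h, and 5.10 and 4.21 at 24 h, 2.88-fold lower at 24 h in WT and 3.99-fold lower in KO. Both 24 h arrays were below both 12 h arrays. Of the 6 genes in that list 2 were kept, and the second, Ffar1, was at 2.51 and 2.46 at 12 h and at 2.59 and 3.09 at 24 h, above the receptor limit only on the KO 24 h array. Among genes of coenzyme A synthesis, Ppcdc, which decarboxylates phosphopantothenoylcysteine, was at 6.19 in WT and 6.05 in KO at 12 h, and at 5.55 and 5.57 at 24 h. Its time difference was -0.64 in WT and -0.49 in KO.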
